A study of Mus musculus with 5 samples.

Results

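The transforming growth factor beta (TGF-beta) axis of the mouse kidney was followed through 9 genes, taken by name from the 22980 genes listed in either of the deposited count tables. They were the ligands Tgfb1, Tgfb2 and Tgfb3, the receptors Tgfbr1, Tgfbr2 and Tgfbr3, the intracellular mediators Smad3 and Smad7, and the target gene Ctgf. All 9 were in both tables, although Tgfb3 had no count in 3 of the libraries. Counts of unique molecular identifiers (UMIs, 1 per captured RNA molecule) were summed for each library and cell annotation and scaled by their total UMIs to CPM, the counts in every 1000000 UMIs.

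The study profiled kidney of C57BL/6 mice in 5 libraries, with 1 library per group. The healthy kidney gave whole cells by Drop-seq (3531 barcodes), and nuclei by sNucDrop-seq (3011), by DroNc-seq (2769) and on the 10x Chromium platform (2084). The injured kidney gave 6147 nuclei on the 10x platform, from day 14 of unilateral ureteral obstruction (UUO), in which a tied ureter backs up urine and leads to tubule loss and scarring. Age, sex and the number of animals behind each library were not stated in the labels, and the main comparison was UUO against healthy 10x nuclei.

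TGF-beta ligands are secreted in a latent form, held by latent binding proteins in the matrix and released by integrins. Active ligand binds Tgfbr2, which recruits and activates Tgfbr1, and Tgfbr3 (betaglycan) is a co-receptor that presents ligand, Tgfb2 above all. The activated receptor phosphorylates Smad2 and Smad3, which enter the nucleus with Smad4, while Smad7 is an inhibitor that the pathway itself induces. In the kidney the pathway is a textbook driver of fibrosis, and Ctgf (connective tissue growth factor, also named Ccn2) is among its classic targets.

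Depth ranged from 2947137 UMIs in the healthy 10x library to 7411036 in the UUO library, and the median barcode held between 1055 and 1630 UMIs. The 9 genes together had 1659 counts in healthy 10x nuclei and 5778 in UUO nuclei. No difference has a replicate check, no test was possible, and every interval below is an exact 95% interval that covers counting error only. The female transcript Xist stood at 1321 CPM in healthy 10x nuclei and at 0.405 CPM in UUO nuclei, and 4 Y-linked genes summed to 3.73 and 619 CPM, so sex and obstruction cannot be told apart in the main comparison. Xist was 0 in the healthy sNucDrop-seq nuclei and 1309 CPM in the DroNc-seq nuclei, and the members are therefore set beside both. The healthy 10x and UUO libraries shared 23 barcode sequences. Marker sums within labels moved with the groups too: the 5 proximal tubule markers summed to 12789 CPM in healthy 10x proximal tubule and 853 CPM in UUO proximal tubule, while 3 injury markers (Havcr1, Vcam1 and Krt20) summed to 19.4 and 1018 CPM. The part of these marker levels in the results was not tested.

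Over all nuclei the obstructed kidney had more ligand, more type II receptor, more Smad3 and less Smad7 RNA than the healthy 10x kidney. A gene counted as measured where both libraries listed it and their sums held at least 20 counts, and as higher or lower where the levels were at least 2-fold apart. Of the 9 genes, 8 were measured; 4 were higher in UUO (Tgfb1, Tgfb2, Tgfbr2 and Ctgf), where 10.2% of all 12831 measured genes were, and 1 was lower (Smad7), where 20.5% were. The median log2 ratio of the 8 was 1.18, beside -0.16 for all measured genes. Tgfb1, Tgfb2 and Ctgf had 12, 14 and 9 healthy counts, so they passed the minimum through their UUO counts, and the shares above are descriptions of these libraries. Against sNucDrop-seq nuclei 3 of 8 were higher (background 19.0%) and 0 lower (31.1%), and against DroNc-seq nuclei 3 were higher (17.2%) and 0 lower (29.1%). Those 3 were Tgfb2, Tgfbr2 and Smad3 in either case.

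**Figure D1:**
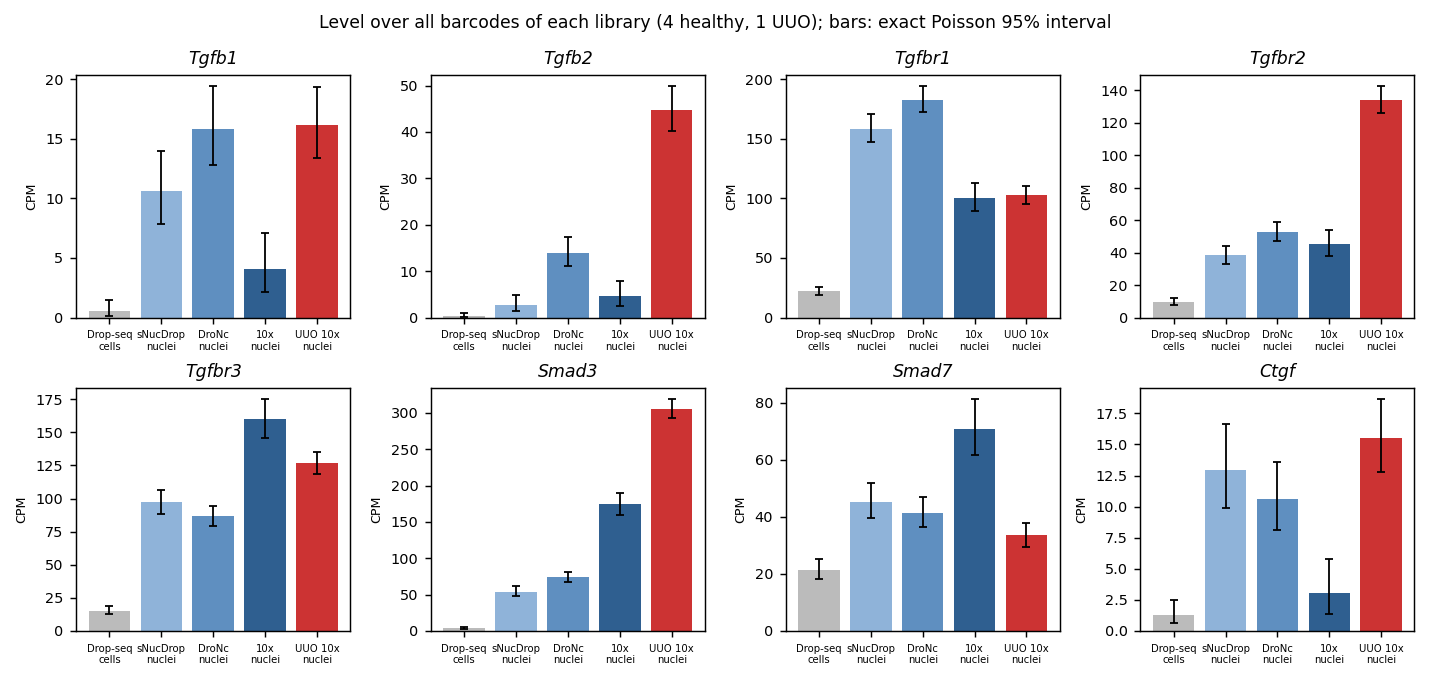
Each panel plots the level of a gene (CPM, y axis) over all barcodes of the 5 libraries, with exact Poisson 95% intervals as error bars. For Tgfb2, Tgfbr2 and Smad3 the UUO bar (44.8, 134 and 306 CPM) stands above each healthy bar, while for Tgfb1 it is level with the DroNc-seq bar (16.2 and 15.9 CPM).

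The ligands were scarce RNAs. Tgfb1, on chromosome 7 (25687002 to 25705077, plus strand, mm10), is the isoform most studied in fibrosis. Over all barcodes it stood at 0.582 CPM in whole cells, at 10.6, 15.9 and 4.07 CPM in healthy nuclei by sNucDrop-seq, DroNc-seq and 10x, and at 16.2 CPM in UUO nuclei. UUO was thus higher than healthy 10x by a log2 ratio of 1.99 (interval 1.13 to 2.98, 120 and 12 counts) but level with the DroNc-seq nuclei, at 0.03 (-0.37 to 0.44). Within the proximal tubule, where the bulk of filtered salt and solutes is taken back up, the 3 healthy nucleus libraries held 2.09, 3.92 and 2.53 CPM in the order sNucDrop-seq, DroNc-seq and 10x. UUO proximal tubule held 17.6 CPM, above all 3, with log2 ratios of 3.08 (1.88 to 4.58), 2.17 (1.29 to 3.15) and 2.80 (1.19 to 5.12, on 3 healthy 10x counts). Endothelium went the other way, with 96.7, 70.0 and 55.4 CPM in the healthy libraries and 27.6 CPM in UUO; the 10x pair had fewer than 20 counts, and the log2 ratio to sNucDrop-seq was -1.81 (-3.35 to -0.43).

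The labels with most Tgfb1 were few and small. In healthy nuclei the highest labels were macrophages (159 CPM in sNucDrop-seq, 265 in DroNc-seq), the DroNc-seq label MC (122) and the endothelium, with proximal tubule labels between 1.55 and 4.50 CPM in those 2 libraries. Healthy 10x nuclei held only 3 macrophages and 16 MC nuclei. In UUO the order was macrophages 79.6 CPM (25.8 to 186, 5 counts), proliferating proximal tubule 55.4 (28.6 to 96.8), the label Fib.1 50.3 (27.5 to 84.3), the label JGA 42.6 (5.16 to 154), endothelium 27.6 and dedifferentiated proximal tubule 25.7 (8.35 to 60.0). None of these neighbours differed beyond its counting interval. The lowest UUO tubule labels were TAL, the thick ascending limb, at 4.77 CPM (1.30 to 12.2) and the PT(S1) segment at 5.12 (0.620 to 18.5).

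Tgfb2, on chromosome 1 (186622792 to 186705989, minus strand, mm10), was the ligand with the widest gap. Its level was 0.291 CPM in Drop-seq cells, 2.81, 14 and 4.75 CPM in sNucDrop-seq, DroNc-seq and 10x healthy nuclei, and 44.8 CPM in UUO. The UUO interval, 40.1 to 49.9 CPM, lay above all healthy intervals. Log2 ratios were 4.00 (3.20 to 4.92) to sNucDrop-seq, 1.68 (1.33 to 2.05) to DroNc-seq and 3.24 (2.47 to 4.12) to healthy 10x nuclei.

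The gap was found in the labels of the proximal tubule, the connecting tubule and the collecting duct. The highest UUO level was in the principal cell label, whose markers are given below. The other classes had too few counts to be measured against healthy 10x. Of these the descending limb had 12.5 CPM in UUO, below the 20.2 of healthy 10x and the 50.9 of DroNc-seq, and the ascending limb had 8.34 CPM, beside 7.52 in DroNc-seq. Principal cells, which take up salt and water in the collecting duct, had 0 Tgfb2 counts in all 3 healthy nucleus libraries. Each had between 114105 and 118824 UMIs in that class. UUO nuclei labelled as principal cells had 74 counts over 322 nuclei, or 167 CPM (131 to 210). With 3 counts set in place of 0, that was 6.35-fold higher than healthy 10x (log2 ratio 2.67, lower limit 2.33). Connecting tubule had 7.96, 3.43 and 0 CPM in the healthy libraries and 45.7 in UUO (30.1 to 66.5). With the 0 set in the same way, UUO was 2.93-fold higher than healthy 10x (log2 ratio 1.55, lower limit 1.16). Intercalated cells, the acid-base cells of the duct, had 0, 5.26 and 4.97 CPM in health and 71.4 in UUO (log2 ratio 3.85, 1.19 to 9.22, 19 counts to 1). Proximal tubule had 1.39, 8.45 and 3.37 CPM and then 39.9 (3.57, 2.18 to 5.46). With so few healthy counts these classes passed the minimum through UUO and had to differ; in the 4 classes where Tgfb2 could be measured, UUO lay above the range of the healthy libraries. The share of all gene and class pairs with UUO above that range was 29.8%, and below it 32.9%.

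By UUO label, principal cells (labelled CD-PC) were followed by JGA at 149 CPM (59.9 to 307), Fib.2 at 111 (59.3 to 190), dedifferentiated proximal tubule at 87.4 (50.9 to 140), Fib.1 at 82.6 (52.3 to 124) and intercalated cells at 71.4 (43.0 to 112). Neighbours in this order overlapped in their intervals. The CD-PC interval lay above those of Fib.1, intercalated cells and all labels below them, among them PT(S2) at 48.5 (39.5 to 59.0), connecting tubule at 45.7 and TAL at 8.34 (3.35 to 17.2). Macrophages had 0 counts, which allows up to 58.7 CPM. As a measure of free RNA, proximal tubule markers outside that class stood at 9.90% of their level inside it in UUO and at 9.48% in healthy 10x. In healthy DroNc-seq nuclei the order was another: MC led at 111 CPM (74.2 to 159), then the descending limb at 50.9 (25.4 to 91.1).

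The markers of these labels bear on how they are read. In UUO the 4 principal cell markers summed to 316 CPM in CD-PC with Aqp3 at 0, beside 6275 CPM in the healthy 10x label of that name, and to 318 CPM in UUO connecting tubule. The UUO label CD-PC was therefore not set apart from connecting tubule by this list. Its 7 fibroblast and pericyte markers summed to 36.1 CPM and its 5 macrophage markers to 31.6 CPM. Its 4 mesangial markers (Pdgfrb, Gata3, Itga8 and Ren1) summed to 524 CPM, beside 613 CPM in the healthy 10x label, where Pdgfrb and Ren1 were at 0. In healthy 10x connecting tubule that list summed to 483 CPM through Gata3 alone, so the CD-PC sum is not read as mesangial content. Fib.1 held all 7 fibroblast markers (1307 CPM), but Fib.2 held 3 of 7 (85.7 CPM, with Pdgfra, Col1a2, Dcn and Lum at 0), less than intercalated cells (94.0). Its 4 podocyte markers summed to 386 CPM, beside 3738 in UUO podocytes, and its proximal tubule markers to 300 CPM, so the name Fib.2 is used only as the authors' label. JGA, whose meaning is not spelled out in the sources used here, led in that mesangial list at 1916 CPM.

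Tgfb3, on chromosome 12 (86056745 to 86079041, minus strand), overlaps genes on the opposite strand, Ttll5 among them. It had 2 counts in sNucDrop-seq nuclei and 7 in UUO nuclei (0.945 CPM, 0.380 to 1.95), spread over 6 labels with 1 or 2 counts each, and was listed at 0 in Drop-seq, DroNc-seq and healthy 10x. No ratio was taken. At this depth no label held more than 2 counts of it.

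RefSeq's promoter table (GRCm38.p6) was searched for all members but Smad7. It was matched for Tgfb1, Tgfb2, Tgfbr1, Tgfbr2 and Smad3, 5 of the 9 genes. The 250 bases before the start are shown for the 3 matched genes that were at least 2-fold higher in UUO over all nuclei. Capitals mark CAGAC, the core of the SMAD binding element, searched on both strands (reverse complement GTCTG). The Tgfb1 stretch is chr7:25686752-25687001 on the plus strand, Tgfb2 is chr1:186705990-186706239 on the minus strand, and Tgfbr2 is chr9:116175364-116175613 on the minus strand.
Tgfb1: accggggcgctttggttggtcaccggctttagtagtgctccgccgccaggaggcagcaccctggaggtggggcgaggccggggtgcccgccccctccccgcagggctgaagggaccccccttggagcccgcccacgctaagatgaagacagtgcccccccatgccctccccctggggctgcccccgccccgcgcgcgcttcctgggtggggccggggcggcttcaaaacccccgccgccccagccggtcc
Tgfb2: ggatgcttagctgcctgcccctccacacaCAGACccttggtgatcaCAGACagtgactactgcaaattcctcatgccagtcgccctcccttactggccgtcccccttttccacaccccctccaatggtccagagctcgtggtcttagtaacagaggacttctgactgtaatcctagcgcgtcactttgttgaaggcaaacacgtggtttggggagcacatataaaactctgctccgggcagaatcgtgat
Tgfbr2: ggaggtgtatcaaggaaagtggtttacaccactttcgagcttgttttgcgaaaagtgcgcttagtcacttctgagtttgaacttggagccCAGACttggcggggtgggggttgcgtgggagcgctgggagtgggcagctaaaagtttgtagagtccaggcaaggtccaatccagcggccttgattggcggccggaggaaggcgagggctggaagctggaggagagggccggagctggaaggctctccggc
CAGAC was found 2 times before Tgfb2, 1 time before Tgfbr2 and 0 times before Tgfb1. The TEAD element GGAATG and the AP-1 element TGANTCA were in none of the 3. Of 32851 promoters of the same length, 42.2% held CAGAC, 12.6% GGAATG and 6.75% TGANTCA on either strand. A match describes letters and is no evidence of binding.

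**Figure D2:**
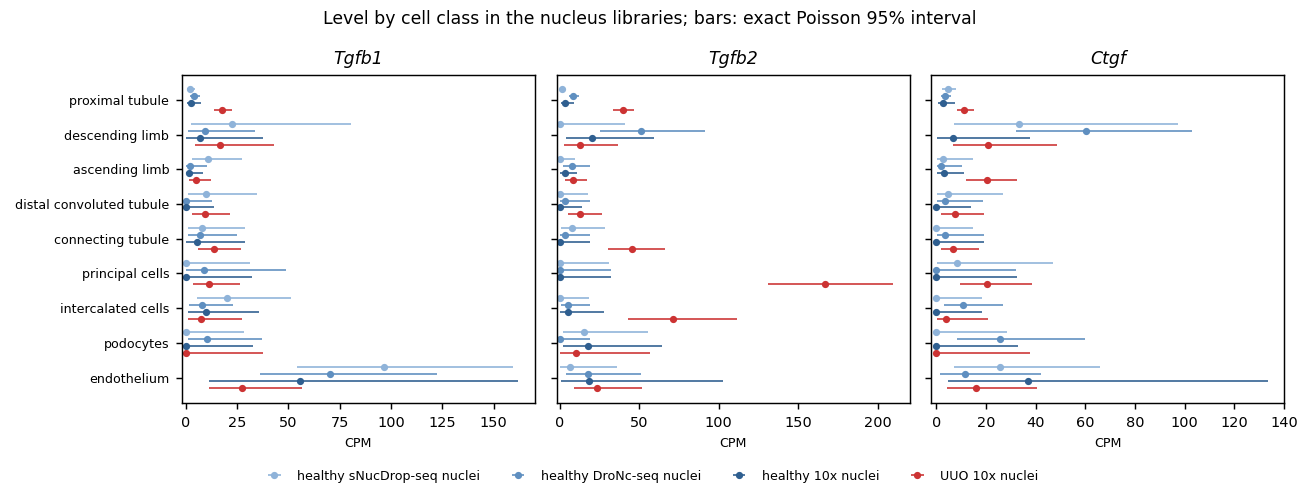
Levels (CPM, x axis) of Tgfb1, Tgfb2 and Ctgf in 9 cell classes (y axis) of the healthy nucleus libraries (blue) and UUO (red), with exact Poisson 95% intervals. The UUO label CD-PC has the highest Tgfb2 level at 167 CPM, while the 3 healthy libraries sit at 0 in that class. Proximal tubule holds more of all 3 genes in UUO than in any healthy library.

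The receptors did not move together. Tgfbr1, the type I receptor kinase (chromosome 4, 47353222 to 47414931, plus strand), was at 22.1 CPM in Drop-seq cells and 159, 183 and 100 CPM in sNucDrop-seq, DroNc-seq and 10x healthy nuclei. UUO nuclei held 103 CPM, a log2 ratio to healthy 10x of 0.03 (-0.16 to 0.23), so a gap of 2-fold over all nuclei lay outside the interval. Against sNucDrop-seq and DroNc-seq the ratios were -0.63 (-0.77 to -0.48) and -0.83 (-0.97 to -0.70).

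Classes differed beneath this level mean. In principal cells Tgfbr1 was 320, 253 and 210 CPM in health and 104 in UUO (log2 ratio to healthy 10x -1.02, -1.76 to -0.24), and in connecting tubule 410, 456 and 285 against 195 (-0.55, -1.03 to -0.06). The ascending limb was higher against healthy 10x, at 93.8 and 180 CPM (0.94, 0.50 to 1.39), but the other healthy nuclei had 157 and 173 CPM there. UUO was below the healthy range in 6 of 10 classes and above it in 1. Over all gene and class pairs those shares were 32.9% and 29.8%. The 3 healthy 10x nuclei labelled macrophages had 307 CPM on 1 count (7.78 to 1712), which allows no ranking. Their proximal tubule markers summed to 13829 CPM, and 1 of 5 macrophage markers had counts. In the other nucleus libraries macrophages held the most Tgfbr1. The levels were 654 (469 to 887) in sNucDrop-seq, 1122 CPM (919 to 1357) in DroNc-seq and 382 (245 to 568) in UUO. Next in UUO were connecting tubule, TAL, Fib.1 and the distal convoluted tubule, at 195, 180, 179 and 178 CPM, which did not differ beyond counting error.

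Tgfbr2, the type II receptor that binds ligand (chromosome 9, 116084293 to 116175360, minus strand), was higher in UUO against every reference. Its level was 9.60 CPM in Drop-seq cells, 38.2, 52.5 and 45.5 CPM in healthy sNucDrop-seq, DroNc-seq and 10x nuclei, and 134 CPM in UUO. The log2 ratios were 1.81 (1.58 to 2.05), 1.35 (1.16 to 1.54) and 1.56 (1.30 to 1.83). UUO lay above the healthy range in 8 of 10 classes, where 29.8% of all gene and class pairs did.

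The widest Tgfbr2 ratios to healthy 10x were in tubule segments that had little of it there. The healthy 10x level is the divisor of these ratios, so a low level there makes a wide ratio more likely by construction. The ascending limb had 10.8 CPM in healthy 10x and 76.3 in UUO (log2 ratio 2.82, 1.70 to 4.20, 7 and 64 counts) and connecting tubule 20.8 and 157 (2.92, 1.52 to 4.83, 4 and 93 counts). Proximal tubule had 34.5 and 132 CPM (1.93, 1.47 to 2.43) and the distal convoluted tubule 29.8 and 87.1 (1.55, 0.45 to 2.84). In sNucDrop-seq and DroNc-seq nuclei these 4 classes held between 13.6 and 42.0 CPM, likewise below UUO. Where healthy 10x nuclei had most, the ratio to them was small: endothelium was at 259 and 331 CPM (0.35, -0.47 to 1.29) and principal cells at 237 and 212 (-0.16, -0.79 to 0.52). That depended on the reference, since sNucDrop-seq nuclei held 122 CPM in endothelium (log2 ratio 1.43, 0.70 to 2.23) and 67.3 in principal cells (1.66, 0.62 to 2.91). The difference of these ratios between classes was not tested. In UUO the endothelium led at 331 CPM (264 to 410), clear of principal cells at 212 (171 to 260), while macrophages (207, 110 to 354) and JGA (170, 73.5 to 336) overlapped with both.

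Tgfbr3, the co-receptor betaglycan (chromosome 5, 107106570 to 107289629, minus strand), had a direction that depended on the reference. It was 15.3 CPM in Drop-seq cells, 97.2, 86.8 and 160 CPM in sNucDrop-seq, DroNc-seq and 10x healthy nuclei, and 127 CPM in UUO. The log2 ratio was -0.34 (-0.50 to -0.17) to healthy 10x nuclei, but 0.38 (0.22 to 0.55) and 0.54 (0.39 to 0.70) to the others, and -0.15 (-0.31 to 0.01) to healthy 10x under median-of-ratios scaling. Within classes it was lower in the descending limb, 513 against 159 CPM (-1.69, -2.30 to -1.11), and there UUO was also below the 300 and 231 CPM of the other healthy nuclei. Ascending limb (265 and 122 CPM, -1.12, -1.49 to -0.76) and endothelium (425 and 173 CPM, -1.29, -2.05 to -0.50) were at least 2-fold lower against healthy 10x only: the other healthy nuclei had 157 and 120 CPM in the ascending limb and 122 and 158 in endothelium. Proximal tubule was higher than each healthy library, at 112 CPM against 68.5, 54.6 and 70.7 (0.67, 0.32 to 1.02, to healthy 10x). The distal convoluted tubule was 2.11-fold higher than healthy 10x, at 63.0 and 29.8 CPM, with an interval that included no difference (1.08, -0.06 to 2.40).

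Among UUO labels Fib.2, which also carried podocyte markers, had the most Tgfbr3, 514 CPM (392 to 662), followed by podocytes at 316 (215 to 448), CD-PC at 287 (239 to 341) and endothelium at 173 (126 to 233). Fib.2 and podocytes overlapped, as did podocytes and CD-PC, while Fib.1 was at 136 CPM (96.5 to 187), below Fib.2. In sNucDrop-seq and DroNc-seq the healthy label MC led, at 384 (295 to 493) and 275 CPM (215 to 346), and in healthy 10x the descending limb did, at 513 (404 to 642).

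Smad3, the receptor-activated transcription factor (chromosome 9, 63646767 to 63757994, minus strand), was the most counted member in UUO, with 2265 counts. Its level was 3.78 CPM in Drop-seq cells, 54.0, 74.0 and 174 CPM in sNucDrop-seq, DroNc-seq and 10x healthy nuclei, and 306 CPM in UUO. The healthy 10x value thus already stood above the other healthy nuclei, and UUO stood above all of them. The log2 ratio to healthy 10x was 0.81 (0.67 to 0.95), under 2-fold, and to the other 2 it was 2.5 (2.31 to 2.70) and 2.05 (1.90 to 2.20).

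The higher Smad3 level was found across classes, though in most it was short of 2-fold against healthy 10x. UUO was above healthy 10x in 9 of 9 measured classes. In 3 of these it was at least 2-fold higher, where 17.7% of all gene and class pairs were. Intervals of UUO and healthy 10x overlapped in the descending limb, endothelium, podocytes, intercalated cells and principal cells. UUO was above the range of the 3 healthy nucleus libraries in 9 of 10 classes, where 29.8% of all pairs were. Macrophages were the exception (255 CPM against 79.7, 138 and 307, the last on 1 count). Distal segments held the widest gaps: the ascending limb had 202 CPM in healthy 10x and 520 in UUO (1.37, 1.08 to 1.66), the distal convoluted tubule 130 and 350 (1.42, 0.90 to 1.99) and connecting tubule 88.2 and 271 (1.62, 0.89 to 2.43). Proximal tubule had 195 and 292 CPM (0.58, 0.37 to 0.79), short of 2-fold. By label, TAL led at 520 CPM (472 to 571), proliferating proximal tubule followed at 429 (347 to 526) with an overlapping interval, and the distal convoluted tubule came next at 350 (302 to 404). PT(S1), at 169 CPM (131 to 215), was lowest, with an interval that overlapped those of podocytes (183), CD-PC (190) and JGA (213).

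Smad7, the inhibitory SMAD that recruits ubiquitin ligases to the receptor, was the gene that was lower. Drop-seq cells held 21.4 CPM, healthy sNucDrop-seq, DroNc-seq and 10x nuclei 45.4, 41.4 and 70.9 CPM, and UUO nuclei 33.5 CPM. The UUO interval, 29.4 to 37.9 CPM, lay below those of sNucDrop-seq (39.4 to 51.9) and healthy 10x (61.6 to 81.2) and overlapped that of DroNc-seq (36.4 to 47.0). Log2 ratios were -1.08 (-1.35 to -0.81) to healthy 10x, -0.44 (-0.71 to -0.17) to sNucDrop-seq and -0.31 (-0.57 to -0.05) to DroNc-seq, so the direction was shared but a gap of 2-fold was met with healthy 10x alone. Under TMM scaling the ratio to healthy 10x was -0.91 (-1.19 to -0.64), short of 2-fold.

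Every measured class had less Smad7 in UUO than in healthy 10x nuclei, 7 of 7. In 4 of these it was at least 2-fold lower, where 15.6% of all gene and class pairs were. The distal convoluted tubule had 127 and 42.6 CPM (-1.57, -2.40 to -0.77), the ascending limb 92.3 and 39.3 (-1.23, -1.89 to -0.59), intercalated cells 84.4 and 33.8 (-1.32, -2.67 to -0.07) and the descending limb 87.7 and 37.5 (-1.22, -2.63 to 0.11). Proximal tubule had 43.8 and 27 CPM (-0.70, -1.20 to -0.19). Against all 3 healthy nucleus libraries UUO was below the range in 5 of 8 classes and above it in 0. Over all gene and class pairs those shares were 32.9% and 29.8%. The distal convoluted tubule was inside the range, with 62.7 and 40.8 CPM in the other healthy nuclei. UUO labels ranged from 0 counts in podocytes and JGA to 63.7 CPM in macrophages (4 counts) and 60.9 CPM in CD-PC (40.2 to 88.7), and CD-PC was clear of PT(S2) at 22.3 CPM (16.4 to 29.8).

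**Figure D3:**
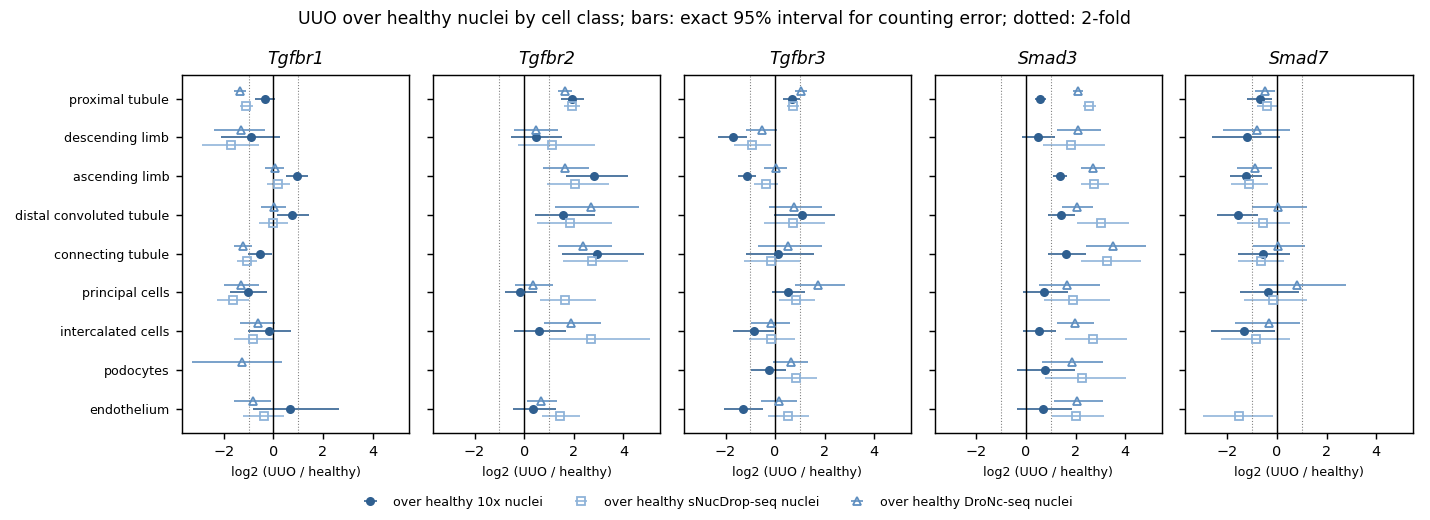
Log2 ratio of the UUO level to the healthy level (x axis) by cell class (y axis) for the receptors and SMADs, with 1 symbol per healthy nucleus library, exact 95% intervals for counting error and dotted lines at 2-fold. Smad3 points lie to the right of 0 in each class plotted, Smad7 points to healthy 10x lie to the left, and Tgfbr1 and Tgfbr3 cross 0.

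Over the 10 cell classes present in both 10x libraries, 48 pairs of a member and a class were measured. UUO was at least 2-fold higher in 14 of them, against 17.7% of 51301 such pairs over all genes, and at least 2-fold lower in 8, against 15.6%. The interval was clear of no difference in 13 of the 14 and 7 of the 8. Pairs of 1 gene share a library and are not replicates, and several passed the minimum only through UUO. With UUO classes weighted by the healthy 10x shares of UMIs, which takes out the different mix of classes, the log2 ratios were 1.72 for Tgfb1, 2.98 for Tgfb2, 0.11 for Tgfbr1, 1.41 for Tgfbr2, -0.40 for Tgfbr3, 0.93 for Smad3, -1.06 for Smad7 and 2.21 for Ctgf. That weighting leaves out Fib.1, Fib.2 and JGA, which had no matched class among the healthy labels, and also the healthy label MC.

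Ctgf, the matricellular target (chromosome 10, 24595442 to 24598683, plus strand, annotated as Ccn2 and overlapped on the other strand by Gm15270), was like Tgfb1 in that its gap depended on the healthy library. It stood at 1.31 CPM in Drop-seq cells, 13.0, 10.6 and 3.05 CPM in sNucDrop-seq, DroNc-seq and 10x healthy nuclei, and 15.5 CPM in UUO. The log2 ratio was 2.35 (1.37 to 3.51) to healthy 10x, on 115 and 9 counts, but 0.26 (-0.20 to 0.74) to sNucDrop-seq and 0.55 (0.10 to 1.02) to DroNc-seq, so the 2-fold gap rested on the choice of healthy 10x as reference. The sNucDrop-seq and DroNc-seq libraries held 147 and 146 nuclei of the label MC, which carried 229 CPM (161 to 316) and 91.7 CPM (58.7 to 136) of Ctgf, beside 16 such nuclei in healthy 10x.

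Ctgf lay above the healthy range in proximal tubule and ascending limb. Proximal tubule had 4.52, 3.32 and 2.53 CPM in sNucDrop-seq, DroNc-seq and 10x and 11.3 in UUO, with log2 ratios of 1.32 (0.39 to 2.34), 1.76 (0.78 to 2.87) and 2.16 (0.51 to 4.49, on 3 healthy 10x counts). The ascending limb had 2.65, 1.88 and 3.08 CPM and 20.3 in UUO (11.8 to 32.4), on 17 counts in UUO and 2 in healthy 10x, too few to be measured against it. The descending limb differed from these, with 20.9 CPM in UUO inside the healthy range of 6.75 to 60.2 CPM, on 1 to 13 counts a library. The highest UUO labels were Fib.1 at 71.8 CPM (43.8 to 111), macrophages at 63.7 (17.3 to 163, 4 counts) and Fib.2 at 51.4 (18.9 to 112), alike within counting error, and Fib.1 was clear of TAL at 20.3.

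**Figure D4:**
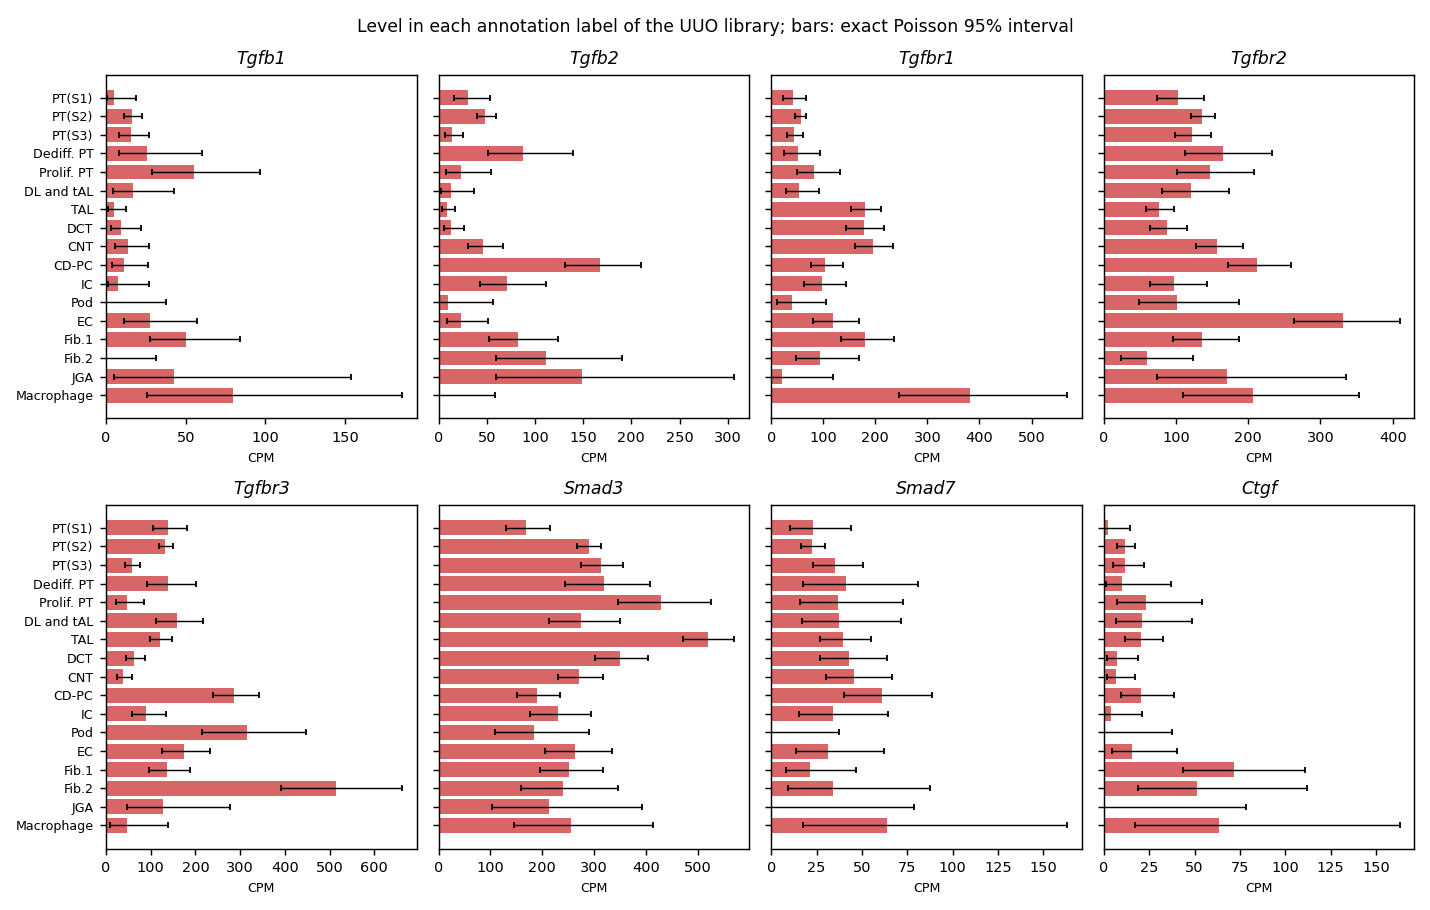
Levels (CPM, x axis) of 8 members in the 17 labels of the UUO library (y axis), with exact Poisson 95% intervals. Tgfb2 peaks in CD-PC (167 CPM), Tgfbr2 in endothelium (331), Tgfbr3 in Fib.2 (514), Smad3 in TAL (520) and Tgfbr1 in macrophages (382).

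For members with at least 200 UUO counts, the gene with the most similar profile over the 17 UUO labels was found by Pearson correlation of log2(CPM + 10) among 6908 genes that averaged 20 CPM or more. It was Usp47 for Tgfb2 (r = 0.78, then Ndufaf2 and Lins1), Dhrs3 for Tgfbr1 (0.89, then Odf2 and Efcab5) and Tpm3 for Tgfbr2 (0.82, then Baz1a and Taf1). For Tgfbr3 it was Matr3 (0.76, then Tmem189 and Fbxo3), for Smad3 Cradd (0.78, then Cacna2d3 and Clcf1) and for Smad7 Fuca1 (0.93, then Emx2os and Foxk1). The 17 points share 1 library, several labels hold few counts, and each gene is the best of all 6908, so these are descriptions only. None of them was on the pathway list.

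The rest of the pathway was read from a list of 72 genes by role, of which 52 were measured over all nuclei. Higher by at least 2-fold in UUO than in healthy 10x were 21 and lower were 5, against the same 10.2% and 20.5% of all genes. The median log2 ratio was 0.62. In the release of latent ligand, 5 of 11 measured genes were higher and 0 lower. Itgav, the alpha chain of the integrins that free TGF-beta, had 267 CPM in healthy 10x and 1201 in UUO (2.17, 2.06 to 2.28), with 2766 CPM in dedifferentiated proximal tubule. Its beta partner Itgb6 was at 355 and 368 CPM (0.05, -0.05 to 0.16). The latent binding proteins Ltbp1 (22.4 and 80.0 CPM, 1.84, 1.47 to 2.23) and Ltbp2 (3.05 and 37.1 CPM, 3.60, 2.66 to 4.75) and the microfibril gene Fbn1 (17.3 and 41.6 CPM, 1.26, 0.83 to 1.72) were higher too. In sNucDrop-seq and DroNc-seq nuclei Itgav was at 177 and 247 CPM, Ltbp1 at 29.4 and 23.9 and Fbn1 at 24.4 and 25.9, all below UUO, and Itgb6 was at 358 and 601 CPM.

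Among other receptors 2 of 6 were higher, Acvr1 (73.6 and 201 CPM, 1.45, 1.24 to 1.66) and Bmpr2 (128 and 273 CPM, 1.09, 0.93 to 1.26), both receptors for bone morphogenetic proteins (BMPs). Among signalling genes and their brakes 8 of 21 were higher and 1 lower. Smad4, the shared partner of the activated SMADs, had 76.3 CPM in healthy 10x and 179 in UUO (1.23, 1.02 to 1.44). Several brakes were at least 2-fold higher, and the 1 gene in this role that was at least 2-fold lower was Smad9. The ubiquitin ligase Smurf1 had 109 and 345 CPM (1.66, 1.49 to 1.83), Trim33 185 and 392 (1.09, 0.95 to 1.22) and Ldlrad4 508 and 1090 (1.10, 1.02 to 1.18). Nedd4l, a ligase that also targets the sodium channel, was at 1642 and 1132 CPM (-0.54, -0.59 to -0.49), but at 584 and 538 CPM in sNucDrop-seq and DroNc-seq nuclei, so its direction reversed against those. Smad9 was lower on 15 and 12 counts (-1.65, -2.88 to -0.46). The inhibitory Smad6, named after its values were seen, was at 181 and 109 CPM (-0.73, -0.89 to -0.57), above the 19.7 and 30.5 CPM of the other healthy nuclei. Acvr1, Bmpr2, Smad4, Smurf1, Trim33 and Ldlrad4 were higher in UUO than in those nuclei too, where the closest was Bmpr2 at 110 and 126 CPM beside 273. Smad9, at 1.62 CPM in UUO, was at 2.59 and 2.22 CPM there.

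Of the target genes 5 of 9 measured were higher and 0 lower. Fibronectin, Fn1, had 3.39 CPM in healthy 10x and 31.0 in UUO (3.19, 2.29 to 4.27), the cell cycle inhibitor Cdkn1a 9.50 and 52.1 (2.45, 1.90 to 3.06), the collagen chain Col1a2 4.41 and 22 (2.32, 1.5 to 3.26) and tenascin, Tnc, 12.9 and 31.7 (1.30, 0.80 to 1.83). Tnc reached 805 CPM in Fib.2, the label without most fibroblast markers, while Fn1 and Col1a2 were highest in Fib.1, at 169 and 287 CPM. Id2, a target of BMP signalling that TGF-beta represses in epithelium, was at 83.5 and 43.3 CPM (-0.95, -1.19 to -0.70). The other higher gene was Cyr61, named after its values were seen, at 3.05 and 16.9 CPM (2.47, 1.49 to 3.63). In sNucDrop-seq and DroNc-seq nuclei Col1a2 was at 19.7 and 22.9 CPM and Cyr61 at 17.7 and 30.4 CPM, so neither was 2-fold higher in UUO against those, whereas Fn1 and Cdkn1a were at most 9.21 and 3.58 CPM there. The matrix and contractile genes Col1a1, Col3a1 and Acta2 were listed at 0 in healthy 10x and highest in Fib.1 in UUO (144, 402 and 266 CPM). Over all UUO nuclei they held 16.9, 36.3 and 15.5 CPM. Healthy sNucDrop-seq nuclei held 1.08, 7.77 and 3.46 CPM of them, and DroNc-seq nuclei 2.05, 20.3 and 8.36 CPM. Col3a1 and Acta2 were thus less than 2-fold higher in UUO than in DroNc-seq nuclei. All were chosen for mention after their values were seen.

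Among BMP ligands, which can counter TGF-beta in the kidney, and the secreted proteins that modulate them, 4 of 5 measured genes were lower and 1 higher. Bmp7 had 30.9 CPM in healthy 10x and 6.88 in UUO (-2.17, -2.69 to -1.66), Bmp4 54.3 and 18.1 (-1.59, -1.93 to -1.25), and the antagonist Fst 16.6 and 1.89 (-3.14, -4.11 to -2.26). Kcp, which enhances Bmp7 signalling, had 6.45 and 3.10 CPM (-1.05, -2.0 to -0.10). Bmp6 went the other way, with 198 and 859 CPM (2.12, 1.99 to 2.24) and 2473 CPM in dedifferentiated proximal tubule. For Bmp7 and Fst the other healthy nuclei held less than healthy 10x: Bmp7 was at 13.4 and 11.6 CPM and Fst at 3.89 and 2.73 CPM, still above UUO. Bmp4 was at 59.0 and 41.8 CPM and Kcp at 16.8 and 14.5 CPM there, also above UUO, and Bmp6 at 148 and 170 CPM, below it.

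**Figure D5:**
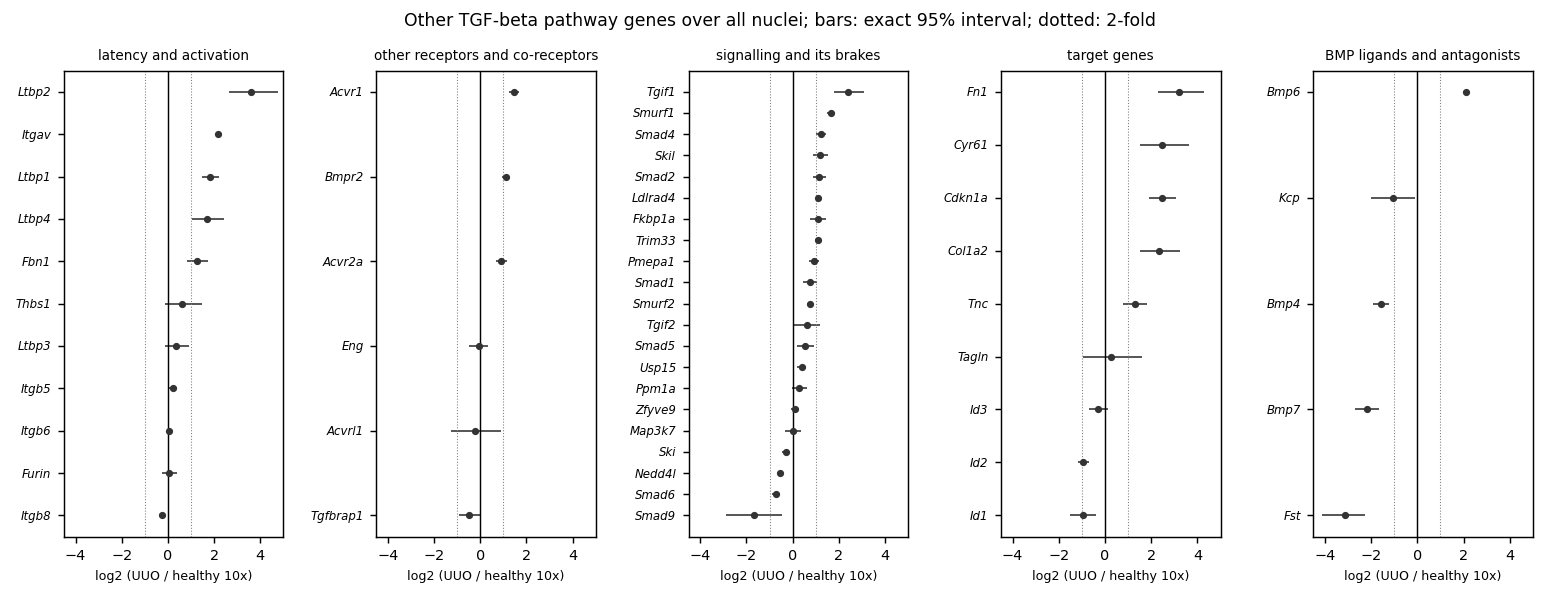
Log2 ratio of UUO to healthy 10x over all nuclei (x axis) for the 52 measured genes of the pathway list, 1 panel per role, with exact 95% intervals for counting error and dotted lines at 2-fold. Itgav, Ltbp1, Ltbp2, Smurf1, Fn1 and Cdkn1a lie beyond 2-fold to the right, and Bmp4, Bmp7 and Fst beyond 2-fold to the left.

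Whole healthy cells gave a different picture of these genes from nuclei of the same organ. In proximal tubule, the class with the most barcodes in both, 5 members were measured between Drop-seq cells and sNucDrop-seq nuclei. None was at least 2-fold higher in cells, where 17.9% of 12838 genes were, and 4 were lower, where 48.7% were. The median over all genes was itself -0.93 on the log2 scale, and TMM scaling moved it by 1.08. Smad3 was furthest from that median, at 3.56 CPM in cells and 49.7 in nuclei (-3.80, -4.54 to -3.14). Tgfbr1 had 18.3 and 114 CPM (-2.64, -2.96 to -2.32), Tgfbr3 14.1 and 68.5 (-2.28, -2.67 to -1.90) and Tgfbr2 9.67 and 34.4 (-1.83, -2.33 to -1.35). Smad7 had 18.0 and 35.4 CPM (-0.98, -1.39 to -0.57), close to the median of all genes.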

How the data were processed

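The values used were raw UMI counts per gene and barcode in the tables the authors deposited, made with the zUMIs pipeline per the deposited readme, and with STAR 2.5.3a and genome build mm10 per the submitters' processing notes. The sources used here do not say whether intronic reads or strand entered the counting. Barcodes kept the authors' cell labels; labels were joined to broad classes (proximal tubule segments and states, intercalated subtypes), with the UUO label DL and tAL set beside LH(DL), and TAL beside LH(AL). All barcodes were kept, and doublets were not called. Counts were summed per class and library and scaled to CPM; a gene at 0 in a whole library is listed at 0, since rare genes may have been filtered there (the commonest number of barcodes per gene was 11 in healthy 10x). Sums carry exact Poisson intervals and ratios an exact interval conditional on their total, which was tested on simulated data. A count of 0 in a class was set at 3 counts. The members, the lists and the naming rule (up to 4 genes by counts per role and direction, and the 2 most abundant) were chosen with earlier results of these data known. Promoters came from RefSeq and gene positions from GENCODE. Python 3.11.15, scipy 1.17.1, pandas 2.3.3, and edgeR 4.0.16 (TMM factors only) were used. Alternatives were other scalings, totals, barcode and count minimums, class weights and healthy references.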

Additional observations from a re-analysis of the deposited data

How the results depend on the processing

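No paired analysis was possible because each group had 1 library, and no library could be left out for the same reason. The count of members at least 2-fold lower in UUO, 1 with CPM (Smad7), was 0 under TMM scaling, under median-of-ratios scaling, with barcodes of at least 1000 UMIs, and with sNucDrop-seq or DroNc-seq nuclei as reference; the scalings moved the median of all genes by 0.17 and 0.19 on the log2 scale. Over classes, the 8 lower pairs became 4 with barcodes of at least 1000 UMIs. A minimum of 100 counts left 5 higher and 2 lower pairs, with fewer pairs measured (16). The shares over all gene and class pairs at these barcode and count minimums are not given. Higher pairs, 14 in the main comparison, were 23 against sNucDrop-seq and 22 against DroNc-seq nuclei. The number of pairs measured and the share over all gene and class pairs are not given for those references. Over all nuclei, 10.2% of all measured genes were higher against healthy 10x, 19.0% against sNucDrop-seq and 17.2% against DroNc-seq. Tgfbr3 reversed, to 0.38 and 0.54 against sNucDrop-seq and DroNc-seq nuclei. Cells against nuclei gave 7 lower members in place of 4 at a minimum of 1 count. At the main minimum 48.7% of all genes were lower in cells. Of the pathway list 2 genes were lower in place of 5 at a minimum of 100 counts. At the main minimum 20.5% of all genes were lower in UUO. The numbers measured and the shares over all genes at the changed minimums are not given. Against sNucDrop-seq nuclei 9 genes of the pathway list were lower, where 31.1% of all measured genes were. The cause was not tested where none is named. The other 81 values of the counts kept their direction within 1.5 times. Tgfb1, Tgfb2 and Ctgf are limited by depth, with 9 to 14 counts each in healthy 10x nuclei.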

Other observations

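Levels of genes that belong to the pathway list but could not be compared with healthy 10x nuclei add detail on place. Tgfbi, a secreted matrix protein named for its induction by TGF-beta, was listed at 0 in healthy 10x nuclei and had 67 counts in UUO, with its highest level in macrophages at 271 CPM. Over all nuclei Tgfbi was at 9.04 CPM in UUO, beside 3.24 and 3.58 CPM in sNucDrop-seq and DroNc-seq. Nrros, which anchors latent TGF-beta on myeloid cells, had 44 counts in UUO, 5.94 CPM over all nuclei, beside 20.1 and 17.9 CPM over all sNucDrop-seq and DroNc-seq nuclei, and its highest UUO label was macrophages. Lrrc32, an anchor on endothelium and regulatory T cells, had 12 counts and was highest in endothelium at 23.6 CPM. Dcn, a proteoglycan that binds TGF-beta, had 93 counts and was highest in Fib.1 at 136 CPM. These genes were chosen after their values were seen.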
